A study of Homo sapiens with 13 samples.

Results

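The regions described here were stretches of chromatin inside genes where a PTBP1 peak and a RUNX1 peak overlapped. They were chosen by peak calls: peaks of both lists that overlapped by at least 1 base were merged, merged regions holding peaks of both lists were kept, and of these the ones that overlapped an annotated gene of any type but lay more than 1 kb from the 5-prime end (the transcription start site, TSS) of every gene. This gave 1009 regions, 22.2% of the 4550 shared regions and 8.16% of all 12367 merged regions. The remaining shared regions were 3239 at a TSS and 302 between genes. For comparison, 2139 gene-body regions held PTBP1 peaks alone and 1513 held RUNX1 peaks alone. Alone, or only, means that the other list had no overlapping peak, not that the other protein was absent. The study reports signal of each protein at nearly all peaks of the other.

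The cells were MOLM-13, an established human acute myeloid leukemia line, and the labels give no treatment for any group. The series held 13 libraries: 2 each of PTBP1 and RUNX1 CUT&Tag with 1 IgG control, and 2 each of PTBP1, RUNX1, H3K27me3 and IgG CUT&RUN. In CUT&Tag an antibody brings a transposase to the bound protein, which inserts sequencing adapters into nearby open DNA, so open chromatin can also give fragments. The data used were a single PTBP1 list and a single RUNX1 list of peaks, which carry no replicate. The lists name their target but no assay and were taken as CUT&Tag because the study describes peak calling for it. Whether an IgG library served as background is not given in the sources used here. Of 40 members with a raised background (above 1.5 times the usual value) at a strongest peak, 35 had it raised in both lists. In a region of AHRR it was 5.93 for PTBP1 and 2.72 for RUNX1, against usual values of 0.720 and 0.330. In another it was 11.9 and 5.44. Which control gave these backgrounds was not tested. No other data of these libraries were analysed here. No spread between libraries can be given and all intervals are 95% Wilson intervals for counting error only.

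RUNX1 is a transcription factor that holds a short DNA motif through its Runt domain, with CBFB as its partner, and is needed to form blood stem cells and their progeny. PTBP1 is known as an RNA-binding protein that reads pyrimidine-rich stretches of nascent transcripts and represses nearby exons. Genes commonly carry enhancers in their introns, above all in the first, and many blood genes use several promoters, so a site inside a gene can be the start of another of its transcripts.

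The RUNX motif was the sequence feature compared most closely, and windows at strong summits show it. The first 6 windows below are 50 bases either side of the RUNX1 summit in shared gene-body regions with a RUNX motif there, on the plus strand of hg38. They were shown because the RUNX1 peak was strong or the gene is a known blood regulator, and all lie in introns of the canonical transcript, the one that the annotation marks as representative. Capitals mark the RUNX motif, TGTGGT or TGCGGT on either strand, so that ACCACA and ACCGCA are the same motif read on the opposite strand.

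CPAMD8, chr19:16897161-16897261: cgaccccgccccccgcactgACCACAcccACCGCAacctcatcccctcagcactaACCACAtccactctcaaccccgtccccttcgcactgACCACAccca
PHACTR3, chr20:59723113-59723213: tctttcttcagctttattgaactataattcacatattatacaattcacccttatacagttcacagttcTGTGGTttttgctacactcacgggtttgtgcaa
RUNX1, chr21:34865756-34865856: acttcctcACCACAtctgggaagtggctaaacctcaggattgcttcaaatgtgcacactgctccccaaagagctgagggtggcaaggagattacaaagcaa
STK10, chr5:172114989-172115089: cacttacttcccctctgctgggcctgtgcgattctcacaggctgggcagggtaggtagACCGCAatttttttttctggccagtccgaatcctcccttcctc
LYL1, chr19:13100200-13100300: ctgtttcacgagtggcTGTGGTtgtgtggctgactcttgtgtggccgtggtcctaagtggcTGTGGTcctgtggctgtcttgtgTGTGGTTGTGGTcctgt
PTPN6, chr12:6953813-6953913: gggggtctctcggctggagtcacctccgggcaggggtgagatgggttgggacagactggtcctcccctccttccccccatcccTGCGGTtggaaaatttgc

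The CPAMD8 window, in intron 39, held 4 copies of the motif and carried the highest RUNX1 fold enrichment of all members, 668. The window of LYL1, which encodes a blood stem cell transcription factor, also held 4 copies, in intron 3. In intron 5 of RUNX1 itself a single copy began 42 bases to the left of the summit. The STK10 window also overlaps the first, noncoding exon of a shorter STK10 transcript. The next windows, centred on the PTBP1 summit, are those of highest PTBP1 fold enrichment with an intronic PTBP1 summit in a gene that has a symbol, and both lacked the motif.

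LMTK3, chr19:48493152-48493252: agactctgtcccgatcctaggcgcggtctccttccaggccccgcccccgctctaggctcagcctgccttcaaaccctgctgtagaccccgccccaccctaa
C19orf81, chr19:50658245-50658345: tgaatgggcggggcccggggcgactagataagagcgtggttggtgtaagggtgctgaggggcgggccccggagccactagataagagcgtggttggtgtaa

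The LMTK3 window, in intron 12, was 66.3% G and C, and the C19orf81 window, in intron 4, was 62.4%. Over all regions of the series the motif lay within 50 bases of 24.3% of 7607 RUNX1 summits and 8.79% of 9310 PTBP1 summits.

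Fold enrichment, the fragment pileup at a summit over its background with 1 added to each, is part of the peak call and is given as a description. The median shared gene-body region was 953 bases wide, with a PTBP1 fold enrichment of 13.95 (quartiles 10.5 and 20.9) and a RUNX1 fold enrichment of 16.5 (quartiles 11.3 and 27.1). These folds stood on a median of 24 PTBP1 and 22 RUNX1 fragments. The PTBP1 peaks were stronger than in PTBP1-only gene-body regions, where the median was 9.30, and the RUNX1 peaks were stronger than in RUNX1-only regions, where it was 12.8. Against shared regions at a TSS, PTBP1 was lower (median 18.6 there) and RUNX1 was close (17.3 there). The ratio of RUNX1 to PTBP1 fold enrichment ran from 0.152 to 17.7 with a median of 1.14, and the folds were only loosely related across the 1009 regions (Spearman correlation 0.277). Every point of that relation comes from the same pair of lists. Which protein was higher depended on the scale: the RUNX1 fold exceeded the PTBP1 fold in 589 members (58.4%), but 575 (57.0%) had more PTBP1 than RUNX1 fragments and 31 had equal numbers, with a usual background of 0.720 fragments for PTBP1 and 0.330 for RUNX1 entering the folds.

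**Figure D1:**
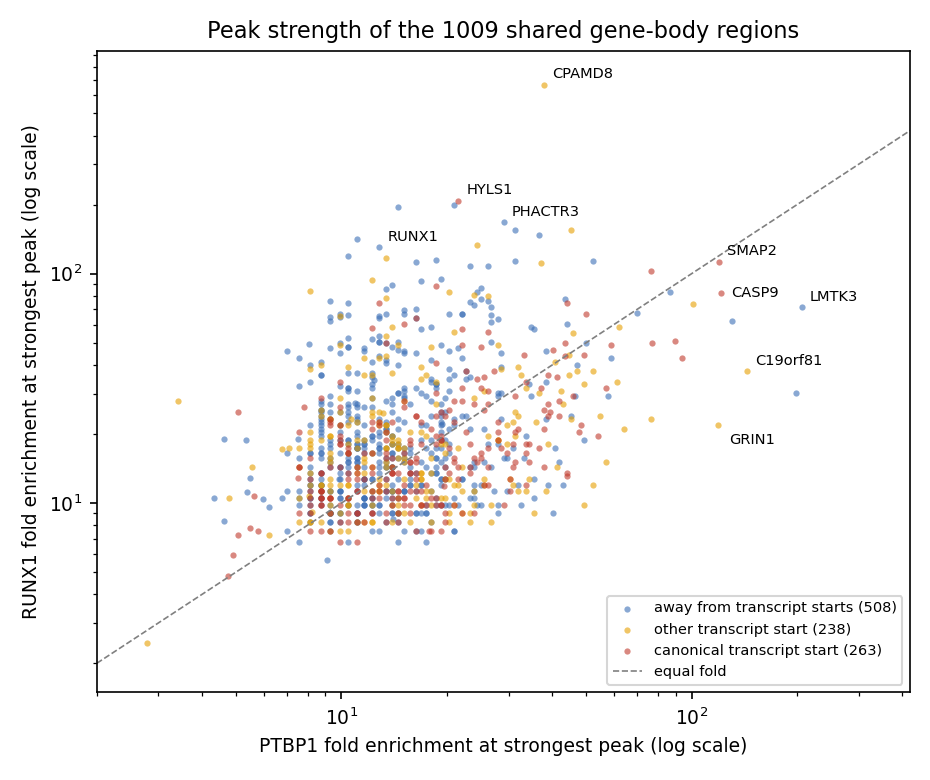
PTBP1 fold enrichment (x axis, log scale) against RUNX1 fold enrichment (y axis, log scale) at the strongest peaks of each of the 1009 shared gene-body regions, coloured by whether the region lay within 1 kb of a canonical transcript start, of another transcript start only, or of neither; the dashed line marks equal folds. RUNX1 was the higher of the pair by fold in 589 regions, while 575 held more PTBP1 than RUNX1 fragments, and CPAMD8 and LMTK3 stand at the ends of the RUNX1 and PTBP1 axes.

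By PTBP1 the strongest region was in LMTK3, a membrane-anchored kinase gene, with 206-fold PTBP1 and 71.4-fold RUNX1 enrichment on 354 and 94 fragments. C19orf81 (144-fold), SDR42E2 (130-fold, in the 3-prime UTR), the initiator caspase gene CASP9 (121.5-fold), the Arf GTPase-activating gene SMAP2 (120-fold), the NMDA receptor subunit gene GRIN1 (119-fold) and the long noncoding RNA LINC00452 (101-fold) followed. None of these 7 held a RUNX motif at the RUNX1 summit. The SMAP2 and GRIN1 regions lay in 1 Mb stretches dense in PTBP1 peaks. The remaining region of the leading 8, with 198-fold PTBP1 and 30.1-fold RUNX1 enrichment, lay in the noncoding gene ENSG00000278996 on the short arm of chromosome 21. That arm carries ribosomal RNA genes in near-identical copies, and 4 members lay there, so their positions and values are uncertain.

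By RUNX1 the order was CPAMD8 (668-fold on 888 fragments), the centriole gene HYLS1 (208-fold), the noncoding gene ENSG00000236961 (199-fold), the pseudogene REXO1L1P (195-fold, one of a set of near-identical copies and so uncertain), PHACTR3 (168-fold), ABR (156-fold), the coenzyme A synthesis gene PPCDC (155-fold) and ZFYVE28 (148-fold). The first 5 of these 8 held the RUNX motif at the RUNX1 summit. The PTBP1 folds of the 8 were between 14.5 and 45.3, so a strong RUNX1 peak did not come with a PTBP1 peak of the same rank.

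The member closest to a TSS, in the histone deacetylase gene HDAC2, lay 1008 bases away with 20.9-fold PTBP1 and 9.77-fold RUNX1 enrichment. The farthest shared region still counted as TSS, in ANP32E, lay 1000 bases away with 14.0-fold and 24.8-fold enrichment. The smallest overlap between the peaks of a member was 9 bases, in SLC19A1 and in IL23A. The smallest gap that kept a PTBP1-only region apart from a RUNX1-only one was 42 bases, in DGKZ and in RASA3. The lowest −log10 q-value of any peak was 7.04 for PTBP1 and 7.24 for RUNX1, and 45 members had a strongest peak under 10 in at least 1 list.

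The median distance to the nearest TSS was 8182 bases (quartiles 3626 and 18519), with 335 members within 5 kb and 60 beyond 50 kb. Protein-coding genes were the host of 910 members, long noncoding RNA genes of 90 and pseudogenes of 9. The RUNX1 summit was in an intron of the host's canonical transcript in 634 members, and of these 275 (43.4%, interval 39.6 to 47.3) were in intron 1 and 121 in intron 2. A further 257 were inside the gene but outside its canonical transcript. Coding exons held 36 summits, 5-prime UTRs 30 and 3-prime UTRs 23. Chromosome 19, which is rich in genes, held 123 members, or 8.33 per 100 protein-coding genes, against 5.04 over all chromosomes.

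The label of gene body covers sites of different kinds. Within 1 kb of the 5-prime end of some annotated transcript lay 501 members (49.7%, interval 46.6 to 52.7), of which 263 were at the start of a canonical transcript and 238 at other transcripts only. PTBP1-only gene-body regions did so in 902 of 2139 cases (42.2%), which was 7.48 points lower (two-sided Fisher's exact test, adjusted p = 0.000115 over 13 comparisons). In RUNX1-only gene-body regions the share was 296 of 1513 (19.6%), 30.1 points lower (exact test, adjusted p = 9.02e-56). The kinds of start differed in order: canonical starts took 26.1% of members and 7.15% of PTBP1-only regions, while other starts took 23.6% of members and 35.0% of PTBP1-only regions, and these parts were not tested on their own. Inner starts were not used to choose members. Distances were taken from the region's edges, and members were wider, with a median of 953 bases. PTBP1-only gene-body regions had a median of 516 bases and RUNX1-only ones 510. A wider region reaches a start more easily, and the part of width in these shares was not tested. Because regions of a gene go together and there is 1 list per protein, the p-values say nothing of variation between cell cultures.

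**Figure D2:**
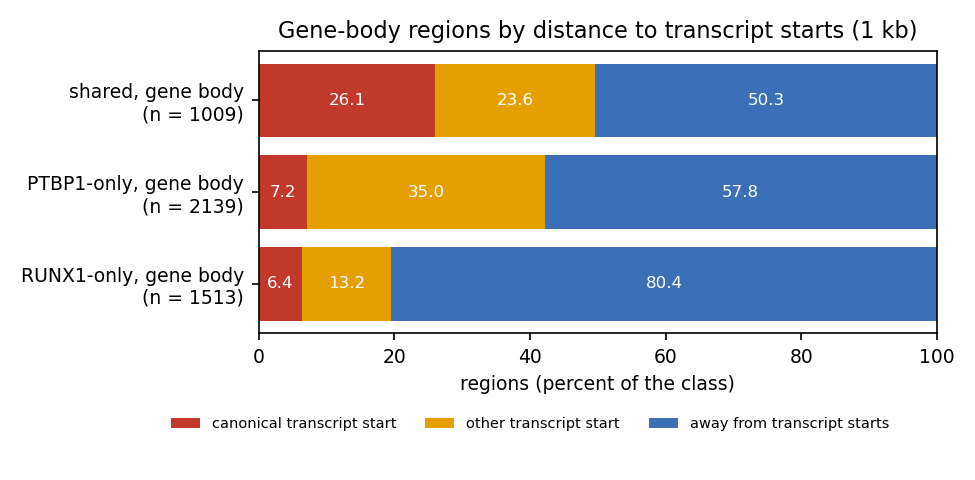
Share of gene-body regions (x axis, percent of the class) within 1 kb of a canonical transcript start, of another transcript start only, or of neither, for shared, PTBP1-only and RUNX1-only regions (bars). The canonical share was 26.1% in shared regions against 7.15% and 6.41% in PTBP1-only and RUNX1-only regions, and the share at other starts only was 23.6% against 35.0% and 13.2%.

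The split ran through named genes. The CASP9, SMAP2 and HYLS1 regions covered a canonical start that lies inside the annotated gene, because a longer transcript begins upstream. The LMTK3 region was 3939 bases from any transcript start and the RUNX1 intron 5 region 5804 bases. Base composition moved with the split: the 501-base window at the RUNX1 summit was CpG-rich (at least 55% G and C and an observed over expected CpG ratio of at least 0.65) in 201 of 263 members at canonical starts (76.4%), 76 of 238 at other starts (31.9%) and 39 of 508 away from starts (7.68%). Members at any start and members away differed by 47.6 points (exact test, adjusted p = 5.67e-64 over 4 comparisons that were added after the first results were seen).

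Over all members CpG-rich windows made up 32.1% at PTBP1 summits, against 12.6% in PTBP1-only gene-body regions (exact test, adjusted p = 5.40e-36), and 31.3% at RUNX1 summits, against 6.87% in RUNX1-only regions (exact test, adjusted p = 3.83e-57). Without regions near a transcript start, the difference from PTBP1-only regions was 1.00 point and the call was lost (exact test, adjusted p = 0.617), while the difference from RUNX1-only regions fell from 24.4 to 5.79 points (7.68% against 1.89%) and still passed (exact test, adjusted p = 1.49e-07). RUNX1 peaks were also the weaker of the pair more often at starts: RUNX1 fold enrichment exceeded that of PTBP1 in 122 of 263 members at canonical starts (46.4%), 129 of 238 at other starts (54.2%) and 338 of 508 away (66.5%). These last shares come from the peak calls and were not tested.

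Exons held a smaller share of PTBP1 summits in members than in PTBP1-only regions. The summit lay in an exon of the canonical transcript in 100 of 1009 members (9.91%) and in 416 of 2139 PTBP1-only regions (19.4%), a difference of -9.54 points (exact test, adjusted p = 9.08e-12). Of the PTBP1-only summits 244 were in coding exons and 122 in 3-prime UTRs, against 37 and 24 in members. RUNX1 summits went the opposite way, with 97 exonic in members (9.61%) and 75 of 1513 in RUNX1-only regions (4.96%, exact test, adjusted p = 1.29e-05). Among intronic PTBP1 summits, intron 1 took 274 of 627 in members (43.7%) and 404 of 1459 in PTBP1-only regions (27.7%).

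A RUNX motif within 50 bases of the RUNX1 summit was found in 215 members (21.3%, interval 18.9 to 23.9) and in 650 RUNX1-only gene-body regions (43.0%), a difference of -21.7 points (exact test, adjusted p = 1.68e-29). In both classes the share was higher in each successive range of RUNX1 fold. Among members with a RUNX1 fold of at most 11.3 the share was 9.12%, against 31.6% of RUNX1-only regions in that range, and it was 16.2% against 43.3% up to a fold of 16.5, 23.4% against 53.2% up to 27.1, and 37.3% against 64.9% above that. The difference was also present among windows that were not CpG-rich, at 25.3% of 693 members and 45.0% of 1409 RUNX1-only regions (exact test, adjusted p = 1.51e-18). Within members the motif was at 25.6% of RUNX1 summits away from transcript starts and 17.0% at starts (exact test, adjusted p = 0.000927), and the starts were not alike, with 10.6% at canonical starts and 24.0% at other starts. Shared regions at a TSS had the motif at 11.4% of 3239 RUNX1 summits and 7.81% of PTBP1 summits, so a low share was not particular to gene bodies.

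**Figure D3:**
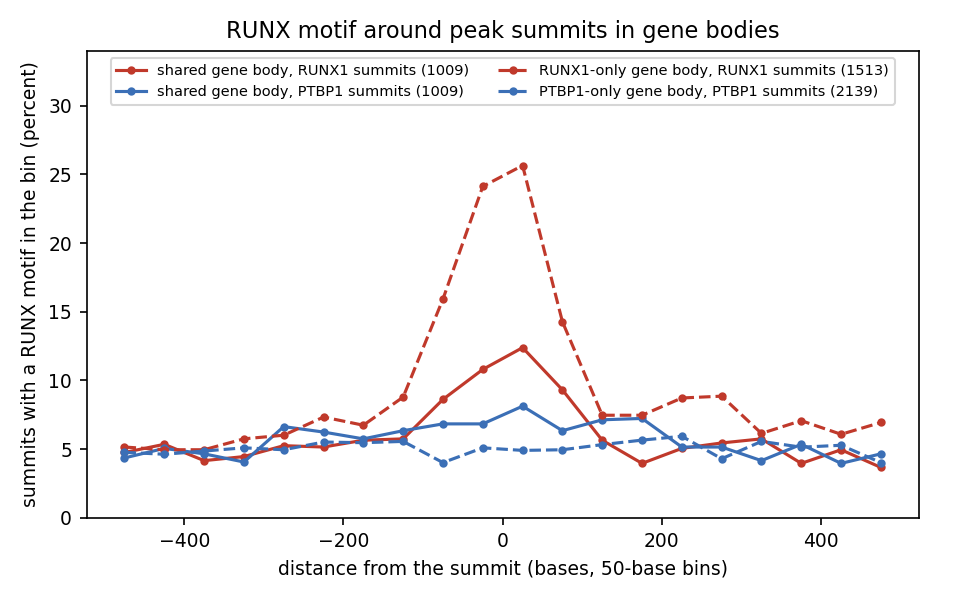
Share of summits with a RUNX motif in each 50-base bin (y axis, percent) by distance from the summit (x axis, bases, plus strand), for RUNX1 and PTBP1 summits of shared gene-body regions (solid lines) and of RUNX1-only and PTBP1-only gene-body regions (dashed lines). In shared regions the bin to the right of the RUNX1 summit held the motif in 12.4% and that of the PTBP1 summit in 8.13%, against 25.6% at RUNX1-only and 4.91% at PTBP1-only summits.

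The motif followed the RUNX1 summit rather than the PTBP1 summit inside the same region. It was present at the RUNX1 summit alone in 130 members, at the PTBP1 summit alone in 53, at both in 85 and at neither in 741 (exact sign test on 130 against 53, adjusted p = 2.57e-08). At PTBP1 summits the share was 13.7%, which was above the 9.21% of PTBP1-only gene-body regions (exact test, adjusted p = 0.000233). With protein-coding genes alone as hosts and TSSs that difference was 2.07 points and did not pass (exact test, adjusted p = 0.0954).

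Motif content also moved with the balance of the peaks. In the 253 members of the top 25% by ratio of RUNX1 to PTBP1 fold enrichment, 105 had the motif at the RUNX1 summit (41.5%), against 23 of 254 in the bottom 25% (9.06%, exact test, adjusted p = 9.47e-18). Of the 50 members with the highest RUNX1 fold, 25 had it. At PTBP1 summits ranked by PTBP1 fold no such rise was seen: the share was 14.4% in the lowest 25% and 10.3% in the highest, and 4 of the top 50 had it.

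**Figure D4:**
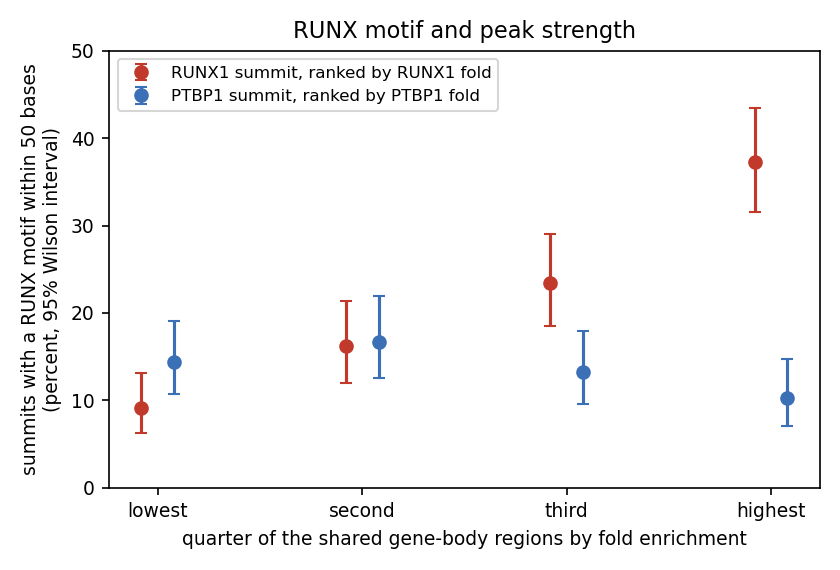
Share of summits with a RUNX motif within 50 bases (y axis, percent, bars are 95% Wilson intervals) by successive 25% of the shared gene-body regions (x axis), with RUNX1 summits ranked by RUNX1 fold enrichment and PTBP1 summits by PTBP1 fold enrichment. The RUNX1 points run from 9.12% to 37.3%, while the PTBP1 points stay between 10.3% and 16.7%.

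Words of other blood and promoter factors were compared in the same members, each summit window against the window 500 bases to its left (9 motifs at each kind of summit, two-sided exact sign tests). At RUNX1 summits 3 passed the exact sign test: RUNX (21.3% against 9.32% in the flank, adjusted p = 4.36e-13), NRF1, written GCGCNNGC (11.3% against 7.23%, adjusted p = 0.00408), and ETS, written CCGGAA or GAGGAA, the motif of PU.1 and its relatives (19.6% against 14.9%, adjusted p = 0.0186). At PTBP1 summits 5 passed by the exact sign test: NRF1 (11.9% against 7.73%, adjusted p = 0.00714), MYB (20.8% against 15.8%, adjusted p = 0.0106), ETS (18.1% against 13.8%, adjusted p = 0.0208) and RUNX (13.7% against 10.2%, adjusted p = 0.0374) were more frequent, and GATA was less frequent (5.75% against 9.81%, adjusted p = 0.00523). The RUNX call at PTBP1 summits was lost in 6 of 10 repeats with other settings. The GATA word is rich in A and T, and the NRF1 word in G and C. C/EBP (TTGCNNAA), AP-1 (TGANTCA), E-box (CAGCTG) and CTCF (CCACCAG or CCACTAG or CCAGCAG or CCAGTAG) words did not pass at either summit, all sought on both strands. Away from transcript starts RUNX at RUNX1 summits was the sole motif to pass, and none did at PTBP1 summits by the exact sign test, where 3 of 9 motifs had an unadjusted p under 0.05. With 508 members left there, most differences kept their size: at PTBP1 summits they were 6.10 points for MYB, 5.12 for ETS, 4.13 for RUNX and -3.35 for GATA, and at RUNX1 summits 4.33 for ETS. NRF1 was the smaller one, at 1.97 points at PTBP1 and 0.787 at RUNX1 summits. Over all regions the ETS words lay at 18.3% of RUNX1 and 15.5% of PTBP1 summits, the NRF1 word at 15.2% and 15.8%, the MYB word (CAACNG or TAACNG) at 19.6% and 16.2%, and the GATA word (AGATAA or AGATAG or TGATAA or TGATAG) at 502 of the RUNX1 and 395 of the PTBP1 summits. A match is a run of letters and not a measured binding site.

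The strongest PTBP1 and RUNX1 summits of a member lay a median of 85 bases apart, at most 20 in 214 members and at most 100 in 554 (54.9%). Shared regions at a TSS had them within 100 bases in 57.2%, a difference of -2.33 points that did not pass (exact test, adjusted p = 0.220). In members away from every transcript start the difference from TSSs was -5.86 points (exact test, adjusted p = 0.0229). PTBP1 reads pyrimidine-rich RNA, so runs of at least 12 C or T within 50 bases of its summit were compared between the strand that matches the host's RNA and the opposite strand. They were found on the RNA-like strand in 84 of 924 members with hosts on a single strand and on the opposite one in 88 (exact sign test, adjusted p = 0.814).

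Of the 20033 protein-coding genes, 813 (4.06%) held at least 1 member, which was 30.2% of the 2688 with any gene-body region of either list. These hosts were long, with a median of 51595 bases against 27471 for all protein-coding genes. The host's own TSS also carried a shared region in 228 of 813 (28.0%). This was less often than in genes with a PTBP1-only gene-body region and no member (372 of 982, 37.9%, exact test, adjusted p = 1.73e-05) and more often than in those with a RUNX1-only region and no member (179 of 948, 18.9%, exact test, adjusted p = 1.29e-05). Genes with regions of both kinds and no member were counted in both groups. The first of these differences was -6.34 points and did not pass once regions near any transcript start were left out (exact test, adjusted p = 0.0712). The TSS compared was the outermost start of the gene, which need not be the canonical one. Of the 1009 members, 263 (26.1%) lay at a canonical transcript start, against 7.15% of PTBP1-only and 6.41% of RUNX1-only gene-body regions. A shared gene-body region at such a start was a member and could not count as one at the host's own TSS. How far this rule shaped the host shares was not tested.

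A single member was found in 696 hosts. GSE1, which encodes a subunit of a histone deacetylase complex, had the most with 7 in a gene of 507 kb, beside 9 PTBP1-only regions and 1 RUNX1-only region. The PTBP1 folds of the 7 members ran from 9.30 to 44.2 and their RUNX1 folds from 8.27 to 74.4. Both highest folds came from the region at a canonical transcript start, with its summits 4024 bases apart. AHRR, the aryl hydrocarbon receptor repressor, and the readthrough gene PDCD6-AHRR that contains it had the same 6 members, and 4 of these 6 stood on a raised local background, so their folds are lower than their fragments alone would give. All 6 lay in a 1 Mb stretch dense in PTBP1 peaks. MBP, known for myelin and also transcribed in blood cells from an upstream promoter, had 5 members and no region of a single protein. In MBP the RUNX1 fold was 83.5 and 65.4 at its strongest members against PTBP1 folds of 24.4 and 12.8, while a region 1648 bases from the nearest transcript start had a RUNX1 fold of 49.6 on 65 fragments beside 85 PTBP1 fragments. SKI, a corepressor of TGF-beta signalling, had 5 members with PTBP1 folds from 10.5 to 36.0 and RUNX1 folds from 7.52 to 58.6.

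Of the genes that the study named for binding or for its proteins, RUNX1 and SLC2A1 held members, and PKM, HK2, ID1, PTBP1 and PTBP2 held none. Sites within 1 kb of any TSS could not be members. Binding at starts, as the study shows for PKM, is therefore not covered here. The RUNX1 region in intron 5 (chr21:34865382-34866368) had 173 RUNX1 fragments and a RUNX1 fold of 131, against 21 PTBP1 fragments and a PTBP1 fold of 12.8. The region in intron 3 (chr21:34887775-34890866) had the same PTBP1 fold and a RUNX1 fold of 42.9. Both held the motif at the RUNX1 summit and not at the PTBP1 summit. SLC2A1, the glucose transporter GLUT1, had 3 members, all in intron 2. The region with the highest fold of each protein spanned chr1:42935059-42939718 with folds of 20.3 for PTBP1 and 34.6 for RUNX1, and the second (10.5 and 9.77) lay 332 bases from a transcript start. The third covered a transcript start, held the RUNX motif at its RUNX1 summit and had the most fragments, 63 for PTBP1 and 254 for RUNX1, but stood on a raised background with folds of 3.40 and 27.9.

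The other genes were taken from 5 lists chosen with earlier results of these data known, so the counts describe them and support nothing. They are read against the 4.06% of all protein-coding genes and the 30.2% of genes with any gene-body region. Blood transcription factor genes held a member in 7 of 66 (10.6%, or 28.0% of the 25 with any gene-body region): RUNX1, LYL1, LMO2, MEF2D, RARA, CUX1 and FOS. RARA, the retinoic acid receptor gene, had a RUNX1 fold of 83.5 and a PTBP1 fold of 20.3 in intron 1. LYL1 had a RUNX1 fold of 50.4, and the PTBP1 summit of that region (fold 12.8) lay 2227 bases away, outside the gene. CUX1 had 49.5 and 8.08 in intron 1 on a raised background. In LMO2, the stem cell cofactor, the folds were 19.5 and 9.30, in MEF2D 21.1 and 23.3, and in FOS 8.27 and 11.6 in the coding part of exon 4.

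Myeloid surface and signalling genes held a member in 10 of 66 (15.2%, or 47.6% of 21 with any gene-body region). INPP5D, the inositol phosphatase SHIP1, had folds of 79.7 for RUNX1 and 26.2 for PTBP1 in intron 13. STK10, a kinase of blood cells, had 80.5 and 23.8 in intron 4, and PTPN6, the phosphatase SHP-1, had 50.4 and 26.7 in intron 3. GRK2, a kinase of G protein-coupled receptors, had nearly equal folds of 44.4 and 44.8 on 58 RUNX1 and 76 PTBP1 fragments. PRKCD, a protein kinase C, had 58.6 and 14.0 in intron 2, and TNFRSF1A, a TNF receptor, 24.1 and 22.1 in intron 1. By fold, PTBP1 was the higher in some regions too. That order depends on the added 1 and on the usual backgrounds, 0.720 for PTBP1 and 0.330 for RUNX1. PTPN6 had a second region, at a canonical transcript start, with 9.88 for PTBP1 and 6.77 for RUNX1, and of the RAC2 regions one had 18.6 and 13.5. In ARHGAP45 the PTBP1 folds were 23.3 and 33.7 against RUNX1 folds of 9.02 and 11.3, in a 1 Mb stretch dense in PTBP1 peaks. A further region that overlaps ARHGAP45 (25.6 and 12.8) has both summits in the 3-prime UTR of the neighbouring gene POLR2E. The others were VAV1 and FCER1G.

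**Figure D5:**
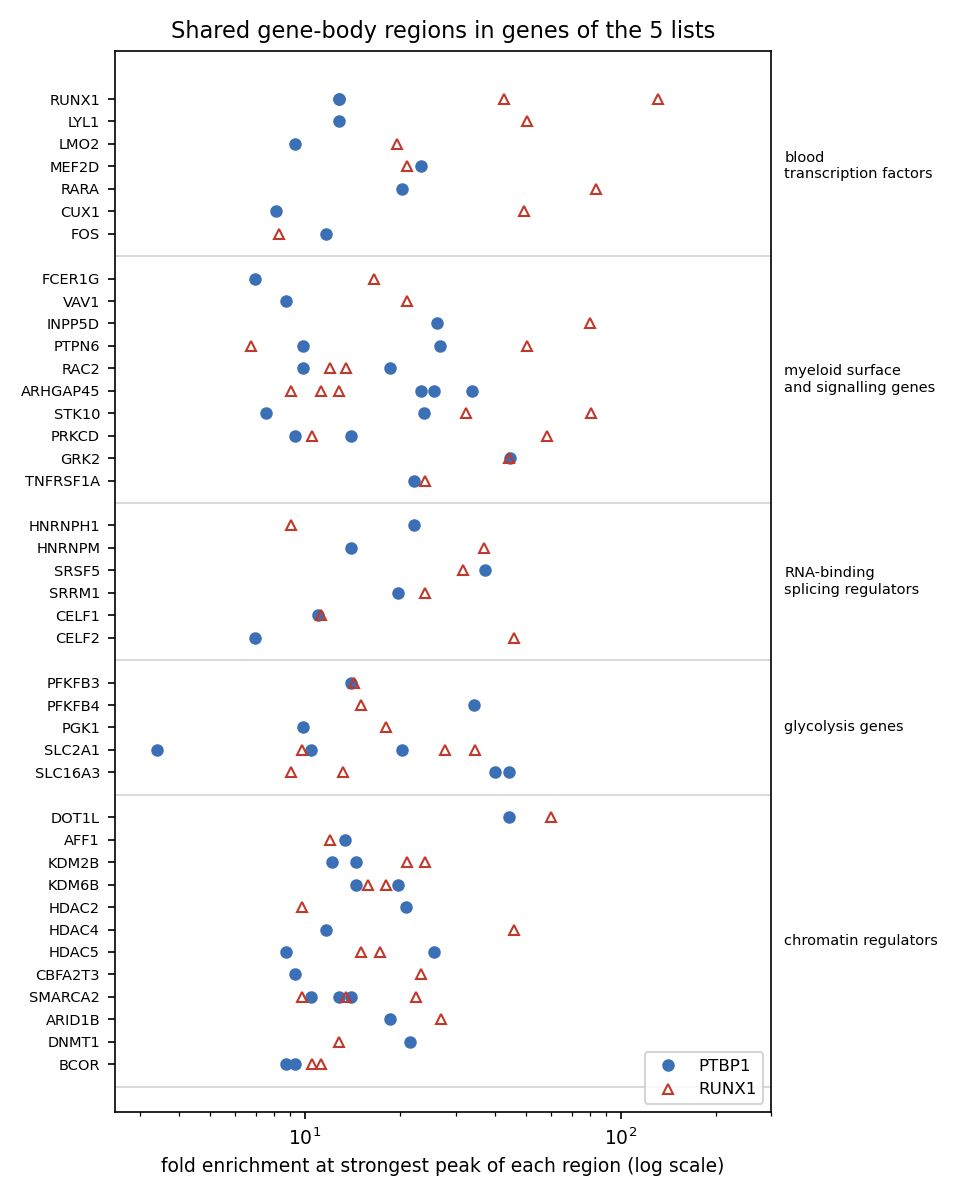
PTBP1 (circles) and RUNX1 (triangles) fold enrichment (x axis, log scale) at each shared gene-body region that overlaps a gene of the 5 lists (y axis, 1 row per gene, with 1 gene not shown). RUNX1 was above PTBP1 in INPP5D, STK10, PRKCD and RARA, and PTBP1 was above RUNX1 in ARHGAP45, SLC16A3 and PFKFB4.

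Among RNA-binding splicing regulators 6 of 68 held a member (8.82%, or 37.5% of 16 with any gene-body region). In SRSF5, HNRNPH1, SRRM1 and CELF1 the member was at a canonical transcript start, with PTBP1 folds of 37.2, 22.1, 19.8 and 11.0 and RUNX1 folds of 31.6, 9.02, 24.1 and 11.3. CELF2 had a RUNX1 fold of 45.9 and a PTBP1 fold of 6.98, on 11 PTBP1 fragments, in intron 2, away from starts. HNRNPM had 36.8 and 14.0 in intron 15. No member lay in PTBP1 or PTBP2.

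Glycolysis genes held a member in 5 of 28 (17.9%, and in 5 of the 10 with any gene-body region). Apart from SLC2A1, the PTBP1 fold was above the RUNX1 fold in the lactate exporter gene SLC16A3 (44.2 and 40.1 against 13.2 and 9.02) and in PFKFB4 (34.3 against 15.0), which makes the activator of phosphofructokinase. The SLC16A3 regions lay in a dense 1 Mb stretch. In the first the background was raised for RUNX1 alone (2.72 against the usual 0.330), which lowers the RUNX1 fold, and its fragments were 75 for PTBP1 and 48 for RUNX1. The second had 68 and 11 fragments on usual backgrounds. PFKFB3 had near-equal folds of 14.0 for PTBP1 and 14.3 for RUNX1, and PGK1, a kinase of the pathway, 9.88 and 18.0. The PFKFB4 and PGK1 members and the first SLC16A3 region were at a canonical transcript start, and the PFKFB3 member was at another transcript start.

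Chromatin regulators held a member in 13 of 69 (18.8%, or 48.1% of 27 with any gene-body region), and these genes were long, with a median of 87486 bases. DOT1L, the H3K79 methyltransferase that KMT2A-rearranged leukemia depends on, had folds of 44.2 for PTBP1 and 60.2 for RUNX1 in intron 1. Its region lay in a dense 1 Mb stretch. With PTBP1 given first, HDAC4 had 11.6 and 45.9 and ARID1B 18.6 and 27.1. HDAC5 had 25.6 and 15.0 at its stronger PTBP1 peak, KDM2B 12.2 and 24.1 at its stronger RUNX1 peak, and KDM6B 19.8 and 18.0 at its stronger region. SMARCA2, an ATPase of the SWI/SNF remodelling complex, had 3 members, of which 2 were at a canonical start. The others included DNMT1, HDAC2, BCOR, AFF1 and CBFA2T3. The DNMT1 and HDAC2 members and a BCOR region were at a canonical transcript start, and those of AFF1 and CBFA2T3 at another transcript start. Whether gene length accounts for any of these counts was not tested.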

How the data were processed

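Per the labels and the study's methods, the authors mapped read pairs to hg38 (Bowtie2), filtered them by mapping quality and removed duplicates. They called peaks with MACS3 under a q-value threshold, and its lists for PTBP1 and RUNX1 were deposited. Whether replicates were pooled is not given in the sources used here. The deposited lists hold a score, a fold enrichment (the ratio of summit pileup to background, with 1 added to each) and −log10 p-values and −log10 q-values. The 9370 PTBP1 and 7688 RUNX1 peaks were merged where they overlapped, and each region was represented by its strongest peak per list. The fragment pileup and background behind each peak were found from its fold and −log10 p-value, and they matched the deposited −log10 p-value within 0.00134. A background above 1.5 times the usual value of its list was counted as raised, at 40 members. A 1 Mb window with at least 50 PTBP1 peaks was called dense.

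Genes and transcripts came from GENCODE version 44 and sequence from hg38, not from MOLM-13 DNA. Shares of regions were compared with two-sided Fisher's exact tests, paired windows with exact sign tests, and p-values were adjusted by Benjamini-Hochberg within each family, with a threshold of 0.05. Depth entered only through the pileups and backgrounds of the deposited peaks. Genes were named by fixed rules: genes the study names, the hosts of the 8 highest members by each fold, the 5 coding genes with most members, and up to 6 genes per list by summed fold. FOS, ARHGAP45 and SMARCA2 fell outside the last rule and were described after their values were seen, and 1 gene of the chromatin list is not reported here. The members, rules and lists were chosen with earlier results of these data known. The procedures were tested on simulated data. Python 3.11.15, pandas 2.3.3 and scipy 1.17.1 were used.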

Additional observations from a re-analysis of the deposited data

How the results depend on the processing

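The comparisons were repeated with a −log10 q-value of at least 10, with summits at most 200 bases apart for a shared region, with a 5 kb TSS window, with protein-coding genes only, without regions near any transcript start, without dense 1 Mb windows, with 1 region per gene, without raised backgrounds, and with other windows, motifs and cut-offs. Of 173 repeats of the comparisons and counts, 158 kept their direction and their side of the threshold or, for numbers of members and of motifs, stayed within 1.5 times. Leaving out regions within 1 kb of any transcript start left 508 members, 1 motif past the threshold at RUNX1 summits and 0 at PTBP1 summits (exact sign tests, with 3 of 9 at an unadjusted p under 0.05). Motif differences at PTBP1 summits rose for MYB (to 6.10 points), ETS (5.12) and RUNX (4.13) and shrank for GATA (-3.35) and NRF1 (1.97). At RUNX1 summits RUNX rose to 14.4 points, and ETS (4.33) and NRF1 (0.787) shrank. Leaving out these regions also brought the CpG-rich difference from PTBP1-only regions to 1.00 points and that of host TSSs to -6.34 points, neither passing, the CpG-rich difference from RUNX1-only regions to 5.79 points, still passing, and the summit distance difference to -5.86 points, now passing. With protein-coding genes only, the RUNX motif difference at PTBP1 summits was 2.07 points and no longer passed. The number of motifs passing at RUNX1 summits was 5 with summits at most 200 bases apart, 6 with windows of 100 bases either side and 5 with the flank taken to the right, and at PTBP1 summits it was 2 with the 5 kb window and 3 with 1 region per gene. The strand difference of pyrimidine runs, which never passed, changed sign to 0.158 points with the 5 kb window, 0.425 with protein-coding genes only and 0.122 without dense windows. The cause was not tested in these cases. Of 80 repeats of the named motifs, 16 lost the call and 0 reversed, and 6 of these were RUNX at PTBP1 summits (threshold of 10, 5 kb window, protein-coding genes only, away from starts, 1 region per gene and without raised backgrounds). The 4 comparisons added after the first results were seen kept their call in all repeats run. No paired analysis was possible because the lists carry no replicate numbers, and no library could be left out for the same reason. The fewest fragments at the summit of any called peak were 11 for PTBP1 and 8 for RUNX1. Weaker shared sites are not counted among the members.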
